A study of Mus musculus with 4 samples.

Results

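A set of 10 genes of natural killer (NK) cells was followed through RNA labelled as lung epithelial, of mice that over-express IL-33 and of control mice. They were the rows of the deposited gene table named Ncr1, Klrb1c, Klrk1 and Il2rb (receptors), Gzma, Gzmb, Prf1 and Nkg7 (cytotoxic granules) and Eomes and Tbx21 (transcription factors). All 10 were found, once each, among 43346 genes, and all 10 passed the filter on low counts, which 20872 genes passed. The IL-33 transgenic group held libraries B and E (replicates 1 and 2), and the control group held libraries D and F (replicates 1 and 2), numbers that follow the order of listing and pair no libraries. The material is labelled as epithelial cells, and as lung tissue in the title of the series. The labels give genotype alone. The sources used here do not give the promoter that drives the transgene, or the strain, sex, age or number of mice per library. The p-values thus only measure how these libraries vary.

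NK cells are lymphocytes without rearranged antigen receptors that kill infected or transformed cells and release interferon-gamma. Activating receptors at their surface start the release of granules, in which perforin opens the target membrane to granzymes, serine proteases that trigger cell death. IL-15, read through the receptor chain encoded by Il2rb, keeps these cells alive, and the T-box factors Eomes and T-bet drive their maturation. Most of these genes are also used by cytotoxic T cells, and several by group 1 innate lymphoid cells.

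The transgene was seen in the counts: Il33 counts per 1000000 (CPM) were 1723 in B and 874 in E, and 117 in D and 108 in F. Libraries held 76120696 to 87723745 gene counts each. The epithelial label was met by high levels of Sftpc (20036 to 36323 CPM) and Scgb1a1, but Pecam1 of endothelium stood at 824 to 1327 CPM, so the RNA was not of epithelium alone. The libraries also differed apart from genotype. Summed epithelial markers were higher in B and D (53744 and 44952 CPM) than in E and F (33685 and 31303 CPM). Sftpc held most of each sum. Of the markers summed, only Foxj1 did not split so, at 124 CPM in B and F, 93.3 in E and 93.6 in D. The summed Y-linked genes of B, E and F were 0.554%, 9.0% and 47.5% of those of D. The part of these differences in the results was not tested beyond the alternative fits given below.

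The 10 NK genes were scarce in every library and lay on the high side in the transgenic ones. Together they took 543 reads in B and 460 in E, against 318 in D and 281 in F, which is 7.13, 5.24, 3.94 and 3.29 reads per 1000000 counted. The transgenic libraries thus lay above the controls in this sum, with 1.32 times (95% interval 1.14 to 1.52) between the nearest pair, E over D. The interval covers counting error only, and library B also exceeded E, of its own group, by 1.38 times (1.22 to 1.57). No member passed the test: edgeR's quasi-likelihood test with Benjamini-Hochberg adjustment over all genes called 0 of the 10 (adjusted p = 1 for each), as it called 0% of all genes tested. Il33 itself, at a log2 fold change of 3.53 (edgeR unadjusted p = 2.06e-04), was not called by edgeR either. With 2 libraries per group, a missing call thus says little about the members. DESeq2, which called 0.00479% of all genes (Il33 alone), and limma-voom, which called 0%, also called 0 of the 10. At an unadjusted p under 0.05 there was 1 member, Il2rb, where 0.896% of all genes were higher at that level. All 10 log2 fold changes (transgenic minus control) were above 0, with a median of 0.85, against 49.6% of all genes above 0 and a median of -0.001 over all genes. In bulk RNA a difference in the number of cells of a type and one in RNA per cell cannot be told apart.

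**Figure D1:**
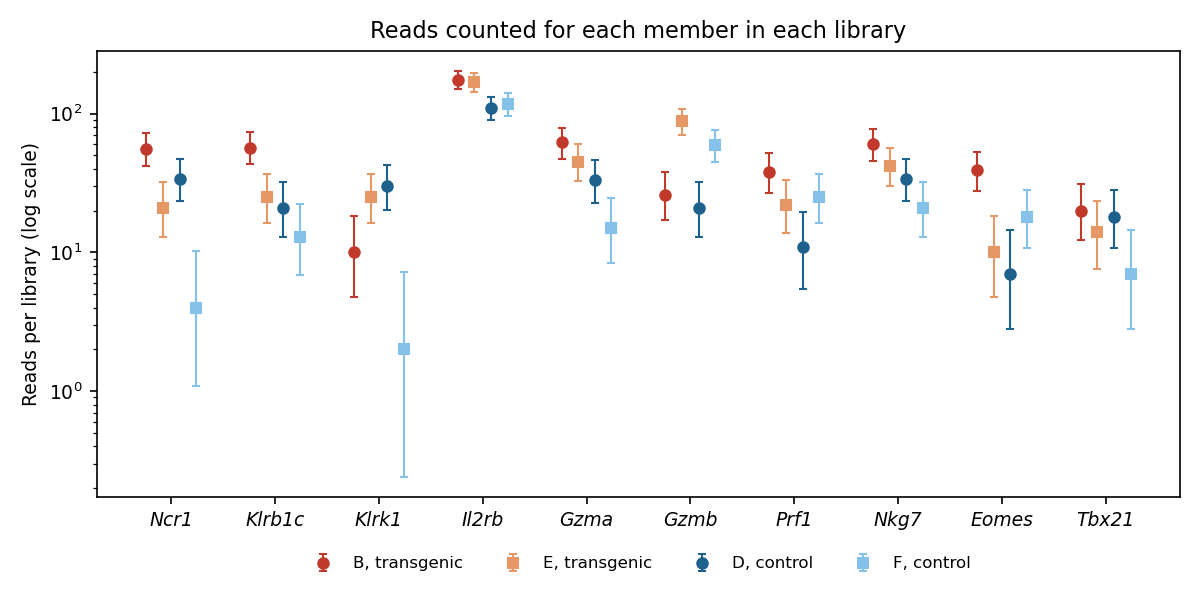
Reads counted for each of the 10 genes in each library, on a log axis. Red and orange are transgenic libraries B and E, dark and light blue are control libraries D and F, and bars are exact 95% Poisson intervals, which cover counting error only. Il2rb is the member with the most reads (109 to 175), and the lowest point is the 2 reads of Klrk1 in F.

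For 4 of the 10 members both transgenic libraries lay above both controls, namely Klrb1c, Il2rb, Gzma and Nkg7, and for 0 both lay below. Over all genes tested, 11.9% lay above in this way and 12% below. The other 6 overlapped between the groups. Per length, the members were scarce beside other genes: the median RPKM (reads per kilobase and 1000000 reads) over the libraries ran from 0.0323 (Eomes) to 0.487 (Il2rb), while that of the median gene tested was 3.18.

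The receptors that sense target cells were led by Klrb1c and Ncr1 in library B. Klrb1c (ENSMUSG00000030325, chromosome 6, 128778485 to 128789215, GRCm38 as in the deposited table) encodes NKR-P1C, the NK1.1 antigen by which mouse NK cells are often sorted. It had 57 reads in B and 25 in E, against 21 in D and 13 in F, at levels of 0.754, 0.282, 0.261 and 0.153 CPM. B stood apart from the other 3 libraries, and E was close to D (ratio 1.08, interval 0.582 to 2.03). The log2 fold change was 1.31 (SE 0.63), which was 0.45 without library B. The exons of Klrb1c overlap those of the predicted gene Gm44511 on the same strand, and the sources used here do not say how shared reads were counted.

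Ncr1 (ENSMUSG00000062524, chromosome 7, 4337724 to 4345164) encodes NKp46, an activating receptor largely restricted to NK cells and some innate lymphoid cells. It had 56 reads in B and 21 in E, against 34 in D and 4 in F. The order was B, D, E and F, so the groups overlapped, and the ratio of the controls to each other (D over F, 8.98, interval 3.2 to 34.9) exceeded that of B to E (3.13, interval 1.86 to 5.44). The log2 fold change of 1.06 had an SE of 1.03, and it ranged from 0.02 without library B to 3.33 without library D.

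Klrk1 (ENSMUSG00000030149, chromosome 6, 129610323 to 129623864) encodes NKG2D, which recognises stress-induced ligands related to MHC class I. Its reads numbered 10 in B and 25 in E, against 30 in D and 2 in F. The highest and the lowest library were both controls, and the log2 fold change was 0.09 (SE 1.10). It turned to -0.57 without library E and to -0.83 without library F.

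Il2rb (ENSMUSG00000068227, chromosome 15, 78480553 to 78495066), the shared beta chain of the IL-2 and IL-15 receptors, was the steadiest member. It had 175 reads in B and 168 in E, against 109 in D and 117 in F. The levels were 2.11 ± 0.298 CPM in the transgenic pair and 1.36 ± 0.0148 CPM in the control pair (SD, n = 2 each). Both transgenic libraries exceeded both controls by more than counting error, with ratios from 1.38 (E over F, interval 1.08 to 1.76) to 1.71 (B over D, interval 1.34 to 2.2). The fold was 1.54 (log2 fold change 0.63, SE 0.24, edgeR unadjusted p = 0.0451, adjusted p = 1), and it stayed between 0.48 and 0.76 on the log2 scale with any 1 library left out.

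The promoters of Ncr1 and Klrk1 are shown because both hold the letters TGTGGTT, a core of sites bound by RUNX factors, which act in cytotoxic lymphocytes. These are the 250 bases before the gene start from RefSeq (GRCm38.p6), with the match in capitals, for Ncr1 on the plus strand at chr7:4337474-4337723 and for Klrk1 on the minus strand at chr6:129623865-129624114. Matches end 178 and 122 bases before the start.
Ncr1: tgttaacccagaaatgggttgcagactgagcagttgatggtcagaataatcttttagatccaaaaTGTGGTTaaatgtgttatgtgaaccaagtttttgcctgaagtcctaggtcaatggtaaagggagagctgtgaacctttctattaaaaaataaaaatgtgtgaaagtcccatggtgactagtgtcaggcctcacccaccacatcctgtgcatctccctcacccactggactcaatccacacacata
Klrk1: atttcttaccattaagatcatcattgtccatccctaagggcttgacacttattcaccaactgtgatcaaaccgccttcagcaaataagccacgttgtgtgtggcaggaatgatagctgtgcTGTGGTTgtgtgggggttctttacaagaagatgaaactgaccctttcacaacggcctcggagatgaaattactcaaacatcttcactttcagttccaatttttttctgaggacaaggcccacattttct
Of the 10 members 9 had a promoter in the RefSeq table, all but Il2rb. Searched on both strands, TGTGGTT was found for 4 of the 9 (Ncr1, Klrk1, Gzma and Gzmb) and in 4.4% of all 32851 promoters of that length. The T-box letters GGTGTGA were found for 1 (Nkg7) and in 3.33% of all, and the ETS letters AGGAAGT for 2 (Prf1 and Tbx21) and in 7.69%. No match overlapped another. A match is a description of these letters and not a bound site.

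The granule genes did not share 1 pattern over the libraries. Gzma (ENSMUSG00000023132, chromosome 13, 113093825 to 113100979) encodes granzyme A, a tryptase of NK and cytotoxic T cell granules. It had 62 reads in B and 45 in E, against 33 in D and 15 in F, or 0.664 ± 0.221 CPM in the transgenic pair and 0.293 ± 0.165 CPM in the control pair (SD, n = 2 each). The groups did not overlap, although E over D was within counting error (1.24, interval 0.774 to 2.01). The log2 fold change was 1.18 (SE 0.53), from 0.69 to 1.90 with 1 library left out.

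Gzmb (ENSMUSG00000015437, chromosome 14, 56258856 to 56262260) encodes granzyme B, which cleaves caspases and their substrates. It had 26 reads in B and 88 in E, against 21 in D and 59 in F. E and F, of different genotype, were the high libraries, and B and D the low ones. The log2 fold change was 0.49 (SE 0.70), and it turned to -0.48 without library E and to -0.04 without library D.

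The balance of the granzymes was alike in B and D and in E and F, across genotype, a pattern noticed after the values were seen. Per length, the authors' RPKM value of Gzmb relative to Gzma was 0.26 in B and 0.394 in D, against 1.21 in E and 2.44 in F. As a share of the reads of both genes, Gzmb took 29.5% in B (exact 95% interval 20.3 to 40.2) and 38.9% in D (25.9 to 53.1), against 66.2% in E (57.5 to 74.1) and 79.7% in F (68.8 to 88.2). None of the intervals of B and D reached those of E and F. Within each pair the transgenic library had the lower share, with intervals that overlapped.

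**Figure D2:**
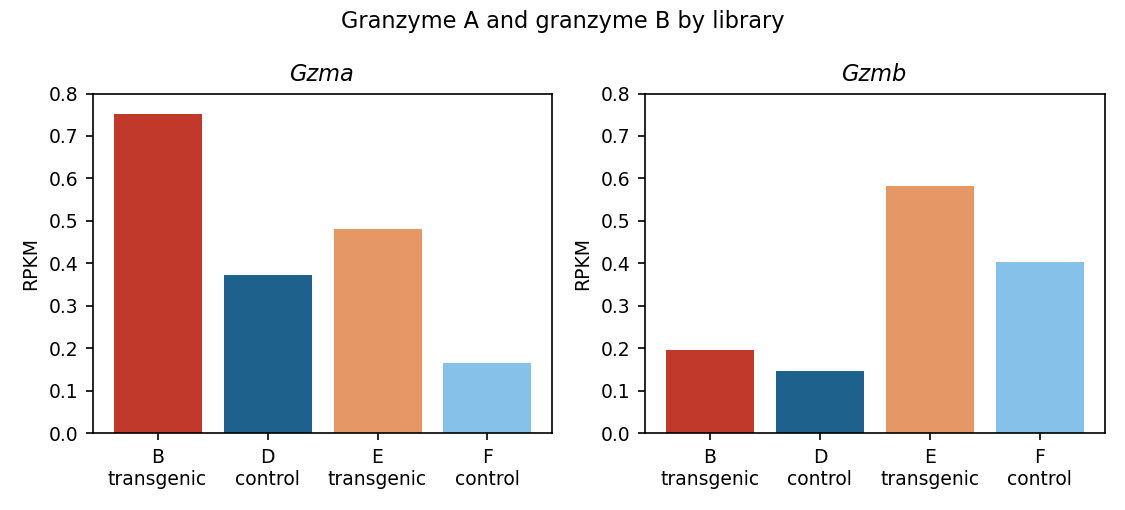
RPKM of Gzma (left) and Gzmb (right) in each library, as deposited by the authors, with libraries ordered B, D, E and F. Red and orange bars are transgenic and blue bars control. Gzma is highest in B (0.751) and lowest in F (0.166), while Gzmb is highest in E (0.582) and lowest in D (0.147).

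The granzyme promoters are shown because both hold the RUNX letters while their levels ran in different orders. They are again 250 bases before the start from RefSeq (GRCm38.p6), on the minus strand, at chr13:113100982-113101231 for Gzma and chr14:56262335-56262584 for Gzmb. Capitals mark TGTGGTT, which in Gzma lies on the opposite strand and so reads AACCACA. The matches end 44 and 27 bases before the start.
Gzma: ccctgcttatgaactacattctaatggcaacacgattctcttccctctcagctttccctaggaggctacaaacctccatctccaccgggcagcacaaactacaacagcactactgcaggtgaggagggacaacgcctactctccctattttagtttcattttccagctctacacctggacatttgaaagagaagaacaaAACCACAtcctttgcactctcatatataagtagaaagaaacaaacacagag
Gzmb: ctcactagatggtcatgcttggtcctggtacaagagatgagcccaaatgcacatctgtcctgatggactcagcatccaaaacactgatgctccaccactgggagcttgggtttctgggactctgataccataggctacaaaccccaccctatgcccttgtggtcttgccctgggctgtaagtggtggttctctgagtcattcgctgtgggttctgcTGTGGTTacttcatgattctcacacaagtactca

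Prf1 (ENSMUSG00000037202, chromosome 10, 61297836 to 61304263) encodes perforin, the pore-forming protein of the granules. It had 38 reads in B and 22 in E, against 11 in D and 25 in F, so that control F lay above transgenic E. The log2 fold change was 0.79 (SE 0.59), from 0.20 to 1.44 with 1 library left out. Nkg7 (ENSMUSG00000004612, chromosome 7, 43437073 to 43438246) encodes a membrane protein of cytotoxic granules and had 60 reads in B and 42 in E, against 34 in D and 21 in F. Its libraries were in the same order as those of Gzma, with 0.634 ± 0.226 CPM in the transgenic pair and 0.334 ± 0.124 CPM in the control pair (SD, n = 2 each). The log2 fold change was 0.92 (SE 0.46), from 0.50 to 1.35 with 1 library left out.

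Both transcription factors had at most 39 reads in any library. Eomes (ENSMUSG00000032446, chromosome 9, 118478212 to 118486132), which encodes eomesodermin, had 39 reads in B and 10 in E, against 7 in D and 18 in F. B alone was high, and without it the log2 fold change of 1.04 (SE 0.87) turned to -0.40. The exons of Eomes overlap those of the predicted gene Gm33460 on the opposite strand. Tbx21 (ENSMUSG00000001444, chromosome 11, 97098071 to 97115331), which encodes T-bet, had 20 reads in B and 14 in E, against 18 in D and 7 in F. Its order was B, D, E and F, and the log2 fold change was 0.46 (SE 0.64), which turned to -0.09 without library F.

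**Figure D3:**
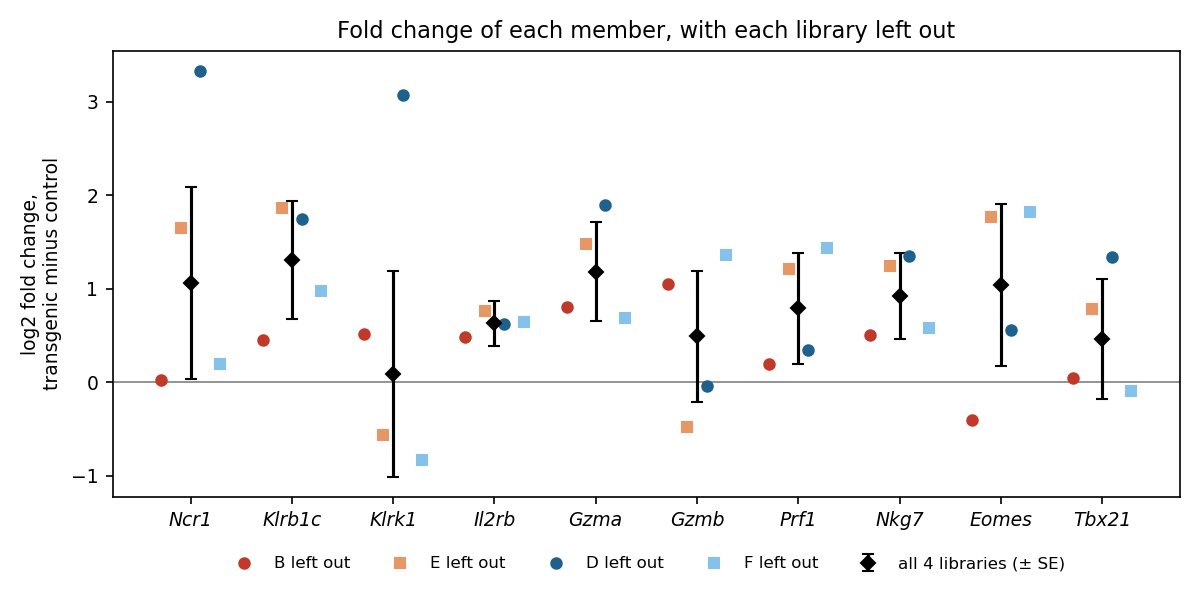
Log2 fold change of each member, transgenic minus control. Black diamonds with bars are the fit to all 4 libraries ± SE, and coloured points are fits with 1 library left out. Il2rb stays between 0.48 and 0.76, while Ncr1 runs from 0.02 to 3.33 and the points of Klrk1, Gzmb, Eomes and Tbx21 cross 0.

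Per length, the order of the members by median RPKM over the 4 libraries was Il2rb (0.487), Gzma (0.427), Nkg7 (0.417), Gzmb (0.299), Ncr1 (0.174), Prf1 (0.109), Klrb1c (0.0749), Tbx21 (0.0624), Klrk1 (0.0395) and Eomes (0.0323). The range of every member over the libraries overlapped that of the next in this order.

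The spread between libraries of 1 genotype was often larger than counting error. Between transgenic libraries B and E the ratio differed from 1 beyond its 95% counting interval for 7 of the 10 members, 6 of them higher in B and 1 (Gzmb) higher in E. Between control libraries D and F it did so for 6, of which 4 were higher in D and 2 (Gzmb and Prf1) higher in F. Library B was the highest for 8 members, and the lowest library was F for 6 and D for 4. The shares of all genes were not computed for these counts, so they cannot be called particular to the members. For 5 members (Ncr1, Klrb1c, Gzma, Nkg7 and Tbx21) B was the highest and F the lowest, an order seen in 13.9% of all genes tested and looked for after the values were seen.

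Within the pairs of libraries that resembled each other in epithelial markers, B lay above D and E above F for 7 of the 10 members. These were Ncr1, Klrb1c, Gzma, Gzmb, Nkg7, Il2rb and Tbx21, while 26.3% of all genes tested lay so. When the fit held a term that set B and D apart from E and F, 0 members were called, as were 0% of all genes, and the smallest adjusted p in edgeR's quasi-likelihood test was 0.799. Log2 fold changes were then 1.24 (SE 0.43) for Klrb1c, 1.23 (SE 0.38) for Gzma, 0.92 (SE 0.36) for Nkg7 and 0.62 (SE 0.22) for Il2rb. With the Y-linked share of the libraries as a covariate instead, 0 members and 0% of all genes were called, 7 of 10 stayed above 0, and Gzmb (-0.81), Prf1 (-0.76) and Eomes (-0.97) turned. The log2 fold change of Klrk1 moved from 0.09 to 6.38 (SE 1.70, edgeR unadjusted p = 0.0115, adjusted p = 1) and that of Ncr1 from 1.06 to 5.26 (SE 2.31). Those of Gzma (2.68), Tbx21 (2.27), Klrb1c (2.01) and Nkg7 (1.79) rested on SEs of 1.24 to 1.65, and Il2rb stood at 0.54 (SE 0.74). The share itself separated the genotypes, at 0.554% and 9.0% in B and E, below 47.5% in F and the level of D. Y-linked genes are carried by male mice, whose part in each library is not given. The part of sex in the members' values was not tested beyond this fit.

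Genes of leukocytes in general mostly lay higher in the transgenic libraries too. Ptprc, which encodes the pan-leukocyte antigen CD45, had 1558 reads in B and 2662 in E, against 662 in D and 1409 in F. All 5 pan-leukocyte genes had log2 fold changes above 0 (median 0.97), with 0 called. For 4 of the 5 both transgenic libraries lay above both controls, beside 11.9% of all genes, of which 49.6% lay above 0. The exception was Laptm5, at 15.2 CPM in B and 15.7 in F. Summed levels of the 5 genes were 57.9 CPM in B and 89.2 in E, against 24.7 in D and 50.2 in F. Read against Ptprc, the 10 members were not higher in transgenic libraries: they gave 34.9 reads per 100 of Ptprc in B and 17.3 in E, against 48.0 in D and 19.9 in F. The transgenic libraries took the second and the lowest place, and the mean was 0.767 times that of the controls (exact two-sided permutation p = 0.667, where 2 against 2 libraries cannot go below 0.33). Taken singly, 0 of the 10 members were separated between the groups per Ptprc read. The share of all genes separated in this way was not computed. Ptprc itself ran from 662 to 2662 reads, which moves every gene divided by it, so the count is no result about the members in particular. Library D had the highest ratio and the fewest Ptprc reads, and without it the log2 ratio of -0.38 turned to 0.39. Without library E it turned to 0.04.

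T cell genes mostly lay on the same side as the members, and none of the 10 T cell markers was at 0 in any library. Their summed levels were 9.85 CPM in B and 9.65 in E, against 5.37 in D and 6.24 in F, and 9 of 10 log2 fold changes were above 0 (median 0.54, 0 called). Of the 10, 5 were separated upward, beside 11.9% of all genes, of which 49.6% lay above 0. Trac lay below 0 (-0.14, SE 0.29), with 57 and 63 reads in B and E, against 57 and 77 in D and F. By CPM, Cd3d was highest in control D (0.707) and Cd4 in control F (1.01). Cd3g, part of the CD3 complex, had 121 and 125 reads in B and E and 36 and 38 in D and F (log2 fold change 1.75, SE 0.27, edgeR adjusted p = 1). Cd8a, of cytotoxic T cells, had 48 reads in B and 19 in E, against 11 in D and 13 in F. Cd3e had 42 and 71 reads in B and E, against 29 and 47 in D and F. Per 100 reads of Cd3d, Cd3e and Cd3g, the 10 members gave 254 reads in B and 180 in E, against 261 in D and 268 in F. Here both transgenic libraries lay below both controls (exact two-sided permutation p = 0.33, the smallest this design allows). Of the reads divided by, Cd3g held 121 of 214 in B and 125 of 255 in E. In the controls it held 36 of 122 (D) and 38 of 105 (F). The order thus leans on Cd3g, and the ratio to Cd3d and Cd3e alone was not computed. Markers of neutrophils (8.3 to 27.6 CPM summed, 6 of 6 above 0) and B cells (10.4 to 18.5 CPM, 5 of 5 above 0) also had higher sums in both transgenic libraries, as had monocyte and macrophage markers (37.6 to 51.6 CPM, 5 of 6 above 0). Separated upward were 6 of 6 neutrophil, 1 of 5 B cell and 2 of 6 monocyte and macrophage markers, beside 11.9% of all genes. Ly6c2, of the monocyte list, was separated downward, as were 12% of all genes. Cd79b and Csf1r, which overlapped between the groups, held the largest parts of the B cell and monocyte sums. Markers of group 2 innate lymphoid cells summed to 82.8 to 98.5 CPM (9 of 9 above 0, median 0.15, 2 of 9 separated upward). Most of that sum was Areg (32.7 to 55.8 CPM) and Rora (30.3 to 37.3 CPM). Gata3 (0.01), Il13 (0.06) and Klrg1 (0.10) were close to 0 on the log2 scale. No gene of these lists was at 0 in any library. Their part, and that of T cells, in the members' values was not tested.

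**Figure D4:**
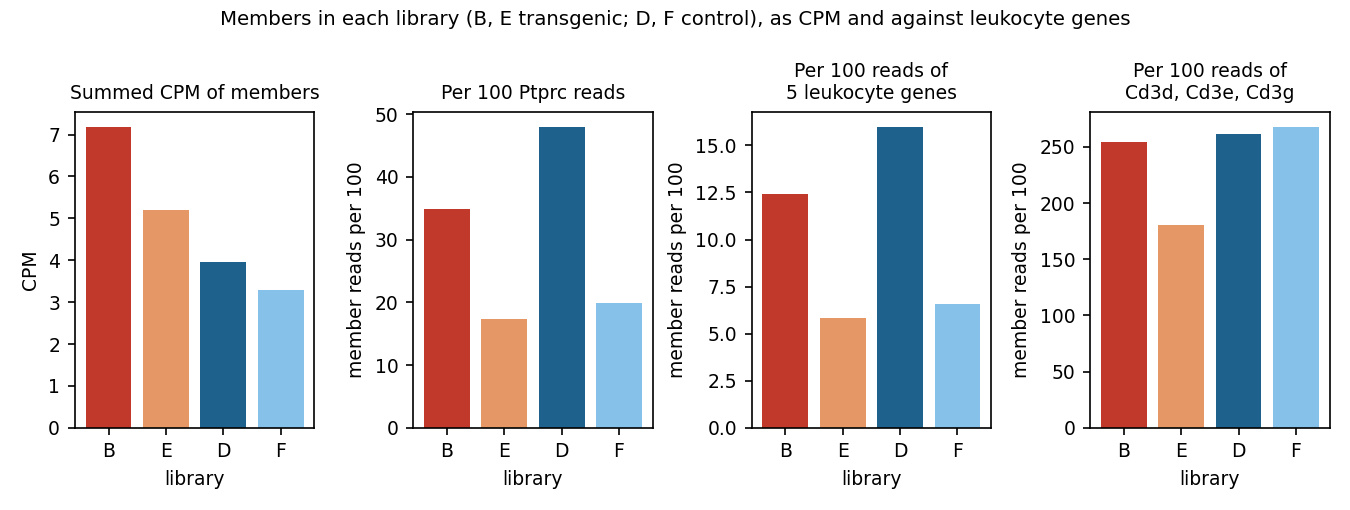
The 10 members summed in each library, as CPM (first panel) and as reads per 100 reads of Ptprc, of 5 leukocyte genes (Ptprc, Coro1a, Laptm5, Cd53 and Cd52) and of Cd3d, Cd3e and Cd3g. Red and orange bars are transgenic and blue bars control. The CPM panel runs from 7.19 in B down to 3.3 in F, while per Ptprc read control D is the highest at 48.0.

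Other receptors and adaptors of NK cells lay on the same side as the members. Of 34 such genes in the table, tests were possible for 20, 0 were called, 19 had log2 fold changes above 0 (median 0.58) and 11 were separated upward, with both transgenic libraries above both controls. Of all genes tested, 0% were called, 49.6% lay above 0 and 11.9% were separated upward. Slamf6, a receptor shared with T cells, had 61 reads in B and 108 in E, against 32 in D and 44 in F (a log2 fold change of 1.15, SE 0.36). Klrc1, which encodes the inhibitory receptor NKG2A, had 42 and 17 reads in B and E, against 14 and 6 in D and F (1.60, SE 0.75). Its partner CD94, from Klrd1, had 25 and 19 reads, against 15 and 9 (0.89, SE 0.52). Klrb1b, an inhibitory relative of Klrb1c, had 77 and 51 reads, against 39 and 21 (1.12, SE 0.50). Tyrobp, the adaptor DAP12, which myeloid cells also use, stood at 6.74 CPM in B and 10.9 in E, against 2.72 in D and 6.05 in F, and Cd96 had a log2 fold change of 0.82 (SE 0.41). The 1 gene below 0 was Ncam1 (-0.47, SE 0.42), which marks human rather than mouse NK cells.

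Of the other genes of granule contents, granule release and death ligands, 17 of 25 were tested, 0 were called, 12 had log2 fold changes above 0 (median 0.17) and 4 were separated upward, beside 49.6% and 11.9% of all genes. Ccl5, a chemokine stored by cytotoxic lymphocytes, had 68 reads in B and 56 in E, against 38 in D and 14 in F (a log2 fold change of 1.27, SE 0.57). Fasl, the Fas ligand, had 24 and 17 reads, against 15 and 4 (1.12, SE 0.73). Both had the library order of Gzma. Below 0 were Ctsw (-0.30, SE 0.33), Gzmm (-0.23, SE 0.41), Srgn (-0.13, SE 0.28), Stx11 (-0.11, SE 0.20) and Tnfsf10 (-0.10, SE 0.32). By CPM, Ctsw was highest in control F (1.98). Ifng, the interferon-gamma gene, had 58 reads in B, whereas E had 6, D 14 and F 9, so that its log2 fold change of 1.55 (SE 1.11) came with only B standing apart. Ctsc, which encodes the protease that activates granzymes but is widely expressed, ran from 503 CPM (F) to 813 CPM (B) with the groups overlapping (0.27, SE 0.24), and Lyst, needed for granule biogenesis, had 0.23 (SE 0.15). Gzmk, Gzmf, Gzmg and Gzmn had 0 reads in all 4 libraries, which allows up to 0.0339 to 0.0397 CPM (3 counts) per library.

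Genes of cytokine receptors and transcription factors were spread to both sides. Of 24 in the table, tests were possible for 23, 0 were called, 13 had log2 fold changes above 0 (median 0.04), 5 were separated upward and 3 downward. The shares over all genes were 49.6% above 0, 11.9% separated upward and 12% downward. S1pr5, a receptor by which NK cells leave lymphoid tissue, had 26 reads in B and 39 in E, against 8 in D and 21 in F (a log2 fold change of 1.17, SE 0.54). Il2ra, the high-affinity IL-2 receptor chain, had 74 and 143 reads, against 59 and 71 (0.73, SE 0.34), while Il21r (0.76, SE 0.42) and Il18rap (0.79, SE 0.44) also lay on the high side. Il15, the ligand of the receptor that holds Il2rb, was 5.98 CPM in B and 6.88 in E, against 6.9 in D and 7.91 in F (-0.20, SE 0.17), and was 1 of the 3 separated downward, as was the repressor gene Prdm1 (-0.39, SE 0.22). Il7r, which T cells and innate lymphoid cells carry, had 71 reads in B and 141 in E, against 43 in D and 67 in F (0.94, SE 0.39).

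Ligands of the receptors mostly had small log2 fold changes above 0. Of 14 in the table, tests were possible for 12, 0 were called, 10 had log2 fold changes above 0 (median 0.10) and 4 were separated upward, beside 49.6% and 11.9% of all genes. H60b and H60c, which encode ligands of NKG2D, gave 0.70 (SE 0.41) and 0.24 (SE 0.16) on the log2 scale, and Ulbp1, another ligand of NKG2D, gave 0.11 (SE 0.13). Cd48, the ligand of 2B4, had 48 reads in B and 177 in E, against 39 in D and 67 in F (1.05, SE 0.62). Cfp, which encodes properdin, had a log2 fold change of 0.46 (SE 0.26).

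**Figure D5:**
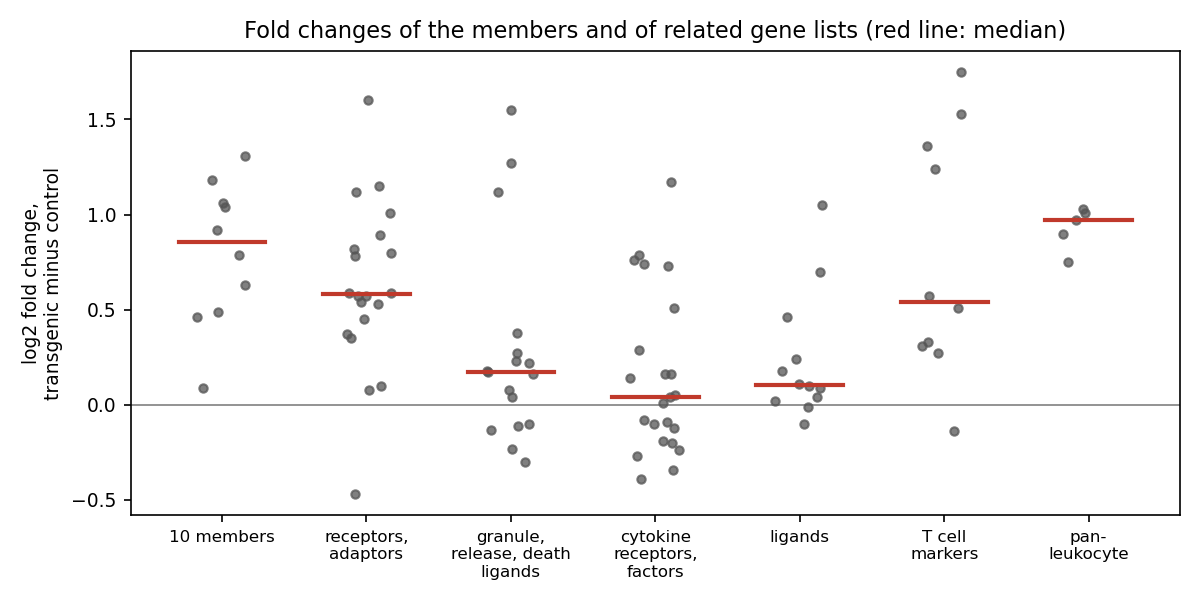
Log2 fold changes, transgenic minus control, of the 10 members, of the 4 lists of other pathway genes, of T cell markers and of pan-leukocyte genes. Each point is a gene that was tested and red lines are medians. The medians run from 0.04 (cytokine receptors and transcription factors) to 0.97 (pan-leukocyte), with the members at 0.85.

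The genes most like the members in pattern were sought among 13748 named genes with a mean of at least 1 CPM, by the root mean square distance of log2(CPM + 0.5), centred over the 4 libraries, from the mean of the members. That mean profile was 0.30 in B and 0.03 in E, and -0.09 and -0.24 in D and F. The 8 nearest were Cracr2a, Dusp9, Acp5, Dennd1c, Fam199x, Mblac1, Prcd and Fpgt, at distances of 0.02 to 0.04. With a pseudocount of 0.1 or 1 in place of 0.5, 0 of these 8 were among the nearest 8. All members but Il2rb and Gzmb had a mean level under 0.5 CPM, so this pseudocount flattened their profile more than that of the genes ranked. The summed members differed 2.18 times between B and F, whereas Fam199x had 38.3 CPM in B and 27.7 in F. The genes named thus depend on the pseudocount.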

How the data were processed

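Polyadenylated RNA was sequenced in 4 libraries labelled as mouse lung epithelial cells, 2 per genotype. Alignment and counting tools, per the submitters' processing notes, were featureCounts (version 1), Bowtie (version 1) and TopHat2 (version 2) on mm10, that is GRCm38. For strand setting, annotation release and multiply matching reads: not given in the sources used here. The authors deposited a whole-number count per gene and library, and an RPKM value beside it. The library totals that the RPKM values imply exceed the gene counts, which are 80.3% to 82.7% of those totals. Per the file headers a coding length stands beside counts and RPKM as another column. Totals ran from 76120696 (B) to 87723745 (E) counts. Mitochondrial genes had 0 counts.

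Counts were kept by filterByExpr (a minimum count of 10 and a total of 15), scaled by TMM and tested with edgeR 4.0.16 (R 4.3.3, quasi-likelihood, legacy setting, no covariate, Benjamini-Hochberg over 20872 genes, threshold 0.05). Each SE is the absolute log2 fold change over the root of the F statistic. Intervals of counts and ratios are exact (Poisson or Clopper-Pearson, 95%) and cover counting error only. Symbols came from GENCODE M21 for 42462 of 43346 identifiers. Alternatives included DESeq2 1.42.0 and limma-voom 3.58.1. The fits were tested on simulated data.

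The members and lists were chosen with earlier results of these data known. Named genes are all members, the 5 with the smallest p of each of the 4 lists of other pathway genes, and 12 defining genes of NK cells, T cells or leukocytes. Sftpc, Scgb1a1, Pecam1, Ncam1, Gzmf, Gzmg and Gzmn were named after their values were seen, as were the genes under the filter. Ctsw, Gzmm, Srgn, Stx11 and Tnfsf10 were as well. So were the cell type markers Trac, Cd4, Areg, Rora, Gata3, Il13, Klrg1, Ly6c2, Cd79b, Csf1r, Foxj1 and Laptm5.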

Additional observations from a re-analysis of the deposited data

How the results depend on the processing

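No member was called under any of the 13 alternatives, and the median log2 fold change of the members lay between 0.46 and 1.35 with 1 library left out. It was 1.90 with each library's Y-linked share as a covariate, where 7 of 10 members were above 0. With that covariate Gzmb (-0.81), Prf1 (-0.76) and Eomes (-0.97) turned. With 1 library left out, the log2 fold change ran from -0.83 to 3.07 for Klrk1, from -0.48 to 1.36 for Gzmb, from -0.40 to 1.82 for Eomes and from -0.09 to 1.34 for Tbx21. The lone library of a group is there assumed to vary like the others. Over all members and alternatives 114 values kept their direction and 9 turned. The count of members with both transgenic libraries above both controls was 2 of 3 tested under the stricter filter (0.5 CPM in 2 libraries), which left 3 members. It was 5 to 8 with 1 library left out, an alternative chosen after seeing the data, where fewer libraries are compared and the share of all genes was 27.1% to 37.5%. The members per Ptprc read had log2 ratios of -0.98 to 0.39 with 1 library left out. Over all genes, 0 to 15 were called with 1 library left out and 1 by DESeq2. No paired analysis was possible because the labels carry no replicate numbers and tie no library to another: the numbers used here follow the order of listing, and the fit that sets B and D apart rests on epithelial markers in the data. Depth limits the members: at 2 to 175 reads, counting alone leaves wide intervals.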

Other observations

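Several NK receptor genes had too few reads to be tested. Klre1, a lectin-like receptor gene of the NK gene complex, had 12 reads in B and 6 in E, against 3 in D and 1 in F. Klri2 had 11 and 4 reads in B and E, against 4 and 2 in D and F. Klrb1a had 10 reads in B, 0 in E and D and 2 in F, so B alone stood apart. Klrb1f had 1 read in B and 6 in E, against 4 in D and 4 in F. Crtam had 1 and 14 reads in B and E, against 6 and 10 in D and F, so both were lowest in B. Slamf7 had 10 and 8 reads in B and E, against 4 and 7 in D and F. The Ly49 receptor genes Klra1, Klra3, Klra7, Klra8 and Klra9 had 0 reads in all 4 libraries, and so had Klri1, which allows up to 0.0339 to 0.0397 CPM (3 counts). Klra4 had 2 reads in each transgenic library and 0 in each control, and Klra17 had 2, 9, 2 and 6 reads in B, E, D and F. Some Ly49 genes are near-identical to each other, and whether reads with several matches were counted is not given in the sources used here.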
